A study of Mus musculus with 4 samples.

Results

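The Hox genes of the mouse lie in 4 clusters, and DNA methylation along all of them was measured in CA1, a field of the hippocampus, by whole-genome bisulfite sequencing. A region was counted as a member where its deposited gene name was Hoxa, Hoxb, Hoxc or Hoxd with a number, or where it lay between the outermost regions so named in its cluster. This gave 483 of 849172 regions, of which 234 carry such a name. The Hoxa cluster (chr6:52153171-52260960, build mm10) held 126 regions and 11 Hox genes, the Hoxb cluster (chr11:96193642-96370318) 147 regions and 10 genes, the Hoxc cluster (chr15:102921039-103038942) 100 regions and 9 genes, and the Hoxd cluster (chr2:74668231-74767321) 110 regions and 9 genes. One Hoxa region of 283 bp within Hoxa3 lacked a level in 1 library, so 482 regions entered the comparisons.

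The 4 libraries fall into 2 groups of 2, Tet2+f_Camk2aCre and Tet2+f, all from mice of the C57B6/J strain at 117 days of age. The Tet2+f_Camk2aCre label is read here as Cre recombinase driven by the Camk2a promoter, which is active in excitatory neurons of the forebrain, and the series text describes reduced Tet2 dose in glutamatergic cells. Both groups carry Tet2+f in their labels, and the Tet2+f group has no Cre in its label. No group has Cre without Tet2+f, so an effect of Cre and one of Tet2 dose cannot be told apart. Nothing in the labels ties the 2 libraries of a group to different animals, so p-values measure only the spread between these libraries. Each level averages over the cell types of the tissue, and a partly methylated region in every cell cannot be told apart from a mixture of methylated and unmethylated cells.

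Hox genes encode homeodomain transcription factors that set position along the body axis of the embryo, and within a cluster they lie in the order in which they are used along that axis. The genes numbered highest act towards the tail, and the forebrain, from which the hippocampus develops, lies in front of the domain where Hox genes act. In tissues where they are silent, Hox clusters are known to be covered by Polycomb repressors, and such chromatin typically carries little DNA methylation. TET2 oxidises 5-methylcytosine to 5-hydroxymethylcytosine, and bisulfite sequencing reads both forms as methylated.

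CpG content at the gene starts varied widely, while their methylation was low. RefSeq promoter windows of 300 bases (250 before and 50 after the start, GRCm38.p6, which has the coordinates of mm10) were at hand for 22 of the 39 Hox genes, as 24 windows. These windows held 4 to 45 CpGs with a median of 14.5, against a median of 7 over all 32851 windows of the table. At least 1 CpG was found in 100% of the Hox windows and in 94.6% of all windows, searched as CG, which reads the same on the other strand. The regions under 22 of the 24 Hox windows averaged under 10% methylation, and levels over the 24 windows ran from 1.12% to 13.9%. The windows of Hoxd13 (chr2:74667975-74668274, plus strand, 37 CpGs), Hoxa9 (chr6:52227321-52227620, minus strand, 4 CpGs) and Hoxb1 (chr11:96365508-96365807, plus strand, 10 CpGs) are shown as the least methylated window, one of the windows with fewest CpGs, and the most methylated window, each 5′ to 3′ with every CpG in capitals.
Hoxd13: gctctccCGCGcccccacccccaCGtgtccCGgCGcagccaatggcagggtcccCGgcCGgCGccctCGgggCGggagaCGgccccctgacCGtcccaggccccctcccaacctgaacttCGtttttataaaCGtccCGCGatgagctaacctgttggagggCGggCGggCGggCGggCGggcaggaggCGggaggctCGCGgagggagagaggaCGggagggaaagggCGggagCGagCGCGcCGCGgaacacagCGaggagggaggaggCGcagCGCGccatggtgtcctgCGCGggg
Hoxa9: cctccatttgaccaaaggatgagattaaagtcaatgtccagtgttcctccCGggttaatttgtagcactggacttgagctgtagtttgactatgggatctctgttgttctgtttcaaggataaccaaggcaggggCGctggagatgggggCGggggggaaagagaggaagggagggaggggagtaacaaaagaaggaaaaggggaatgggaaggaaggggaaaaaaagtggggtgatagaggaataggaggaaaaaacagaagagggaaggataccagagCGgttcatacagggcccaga
Hoxb1: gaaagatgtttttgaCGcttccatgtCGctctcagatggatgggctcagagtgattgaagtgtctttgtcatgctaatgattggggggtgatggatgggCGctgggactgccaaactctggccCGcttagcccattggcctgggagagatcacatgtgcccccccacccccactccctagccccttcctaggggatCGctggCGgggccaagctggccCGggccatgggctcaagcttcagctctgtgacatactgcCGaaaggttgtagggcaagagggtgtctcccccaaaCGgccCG
The regions under the Hoxd13 window, the promoter of a gene of digits and genitalia, had levels of 0.378% and 3.69% in the Tet2+f_Camk2aCre libraries and 0.0% and 0.398% in the Tet2+f libraries. The single region of 1833 bp under the CpG-poor Hoxa9 window had 3.42% and 5.94% in Tet2+f_Camk2aCre, against 4.12% and 7.12% in Tet2+f. Hoxb1, a gene of the hindbrain, had 13.3% and 16.4% under its window in Tet2+f_Camk2aCre and 14.8% and 11.1% in Tet2+f. The groups overlapped at all 3 windows.

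Hox clusters were among the least methylated stretches of the genome in this tissue, in the libraries of both groups. The mean level over Hox regions was 10.3% and 9.83% in the Tet2+f_Camk2aCre libraries and 10.02% and 10.1% in the Tet2+f libraries. Over all other 848532 regions it was 75.99% and 75.9% in Tet2+f_Camk2aCre and 75.8% and 76.1% in Tet2+f. Within each library, Hox regions minus other regions came to -65.9 ± 0.155 points (SD, n = 4 libraries), and the difference had the same sign in 4 of 4 libraries. An exact two-sided sign-flip permutation test over the 4 libraries gave p = 0.125, the smallest it allows. Weighted by region length, the Hox mean was 18.2% and 17.8% in Tet2+f_Camk2aCre and 17.9% and 18.2% in Tet2+f. Hox minus other regions was then -62.7 points. Levels under 10% were found in 374 of the 482 Hox regions (77.6%, on the mean of the 4 libraries), a further 63 lay between 10% and 20%, 18 between 20% and 50%, and 27 (5.60%) at 50% or more. Counted within libraries, 77.4 ± 0.448% of Hox regions and 5.67 ± 0.0278% of other regions were under 10% (SD, n = 4 libraries; exact sign-flip permutation p = 0.125).

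Hox regions of 500 bp and more were on average less methylated than other regions of like length, but their level rose with length. Levels under 10% were found in 96.3% of Hox regions under 250 bp and in 29.6% of those at 2000 bp and more. Regions in this table held close to equal numbers of CpGs where that could be counted: of 1816 regions lying wholly inside a RefSeq promoter window, 90.5% held 24 to 26 CpGs. Only short regions fit in such a window; if the same holds for the others, length runs opposite to CpG density. Under 250 bp, Hox regions averaged 2.26% and other regions 2.49%. Between 250 and 500 bp, Hox regions averaged 2.84% and other regions 19.1%, while the medians were 2.36% for Hox and 0.911% for other regions. Between 500 and 1000 bp, the 148 Hox regions averaged 5.43% and the other regions 55.8%. Between 1000 and 2000 bp, the 103 Hox regions averaged 15.04% and the other regions 76.8%. At 2000 bp and more, 71 Hox regions had a mean of 29.5% and 28.9% in Tet2+f_Camk2aCre and 29.0% and 29.6% in Tet2+f, and Hox minus other regions of that length was -52.9 ± 0.178 points (SD, n = 4 libraries; exact sign-flip permutation p = 0.125, a comparison added after the data were seen).

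**Figure D1:**
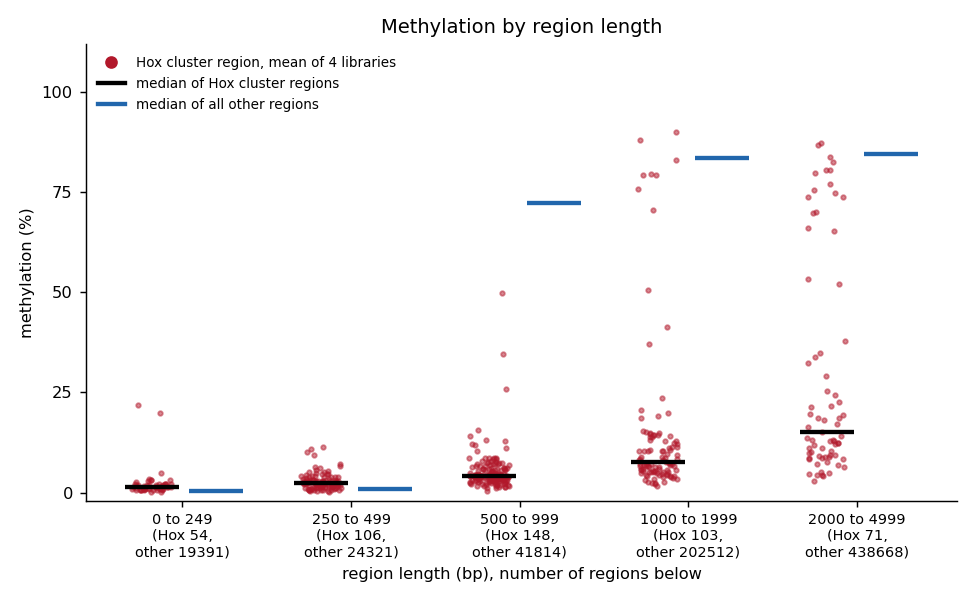
Methylation level (percent, vertical axis) of each Hox cluster region (red points, mean of 4 libraries) by region length in bp (horizontal axis), with the median of the Hox regions (black bars) and of all other regions (blue bars). The medians are close under 250 bp (1.35% for Hox and 0.500% for other regions) and lie far apart between 500 and 1000 bp (4.11% and 72.4%).

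The low levels ran on over long distances. Joining neighbouring regions under 20% that lie no more than 1000 bp apart gave 16611 stretches in the genome, with a median length of 1238 bp. A stretch of 67.5 kb in Hoxc, which starts before Hoxc13 and ends at Hoxc9, was the second longest of all. Stretches of 62.9 kb in Hoxa, 54.5 kb in Hoxb and 32.6 kb in Hoxa ranked 3, 4 and 5 by length. Hoxd held stretches of 30.2 kb and 29.6 kb, ranked 7 and 8, and Hoxb a further one of 26.4 kb, ranked 10. With a limit of 50%, the Hoxc stretch grew to 109 kb and ranked 2 of 27905.

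The edges of this low domain differed between the clusters. The 348 regions within 100 kb of a cluster averaged 57.0%, and Hox regions minus these was -46.9 ± 0.0853 points (SD, n = 4 libraries; exact sign-flip permutation p = 0.125). At the Hoxd1 end the last region of the cluster was itself at 86.7%, and the next region, 98 bp away, was at 83.5%. On the other side of Hoxd, before Hoxd13, the first region at 50% or more lay 20608 bp away. Before Hoxb13 it lay 24885 bp away, the largest distance at any edge. Beyond Hoxa13 that distance was 17212 bp, and Evx1, a homeobox gene on that side, had a promoter level of 4.47% and 3.10% in Tet2+f_Camk2aCre and 4.20% and 4.89% in Tet2+f. Evx2, its relative next to Hoxd13, had 7.87% and 6.96% in Tet2+f_Camk2aCre, against 7.06% and 6.38% in Tet2+f. The 20 neighbouring names listed include Lnp and Lnpk for the same gene, and 17 genes had a promoter level, with a median of 23.8%. Of these, 0 passed limma's test between the genotypes (0.0156% of all promoters did). An unadjusted p under 0.05 was found for 0 of them (5.29% of all promoters had one).

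**Figure D2:**
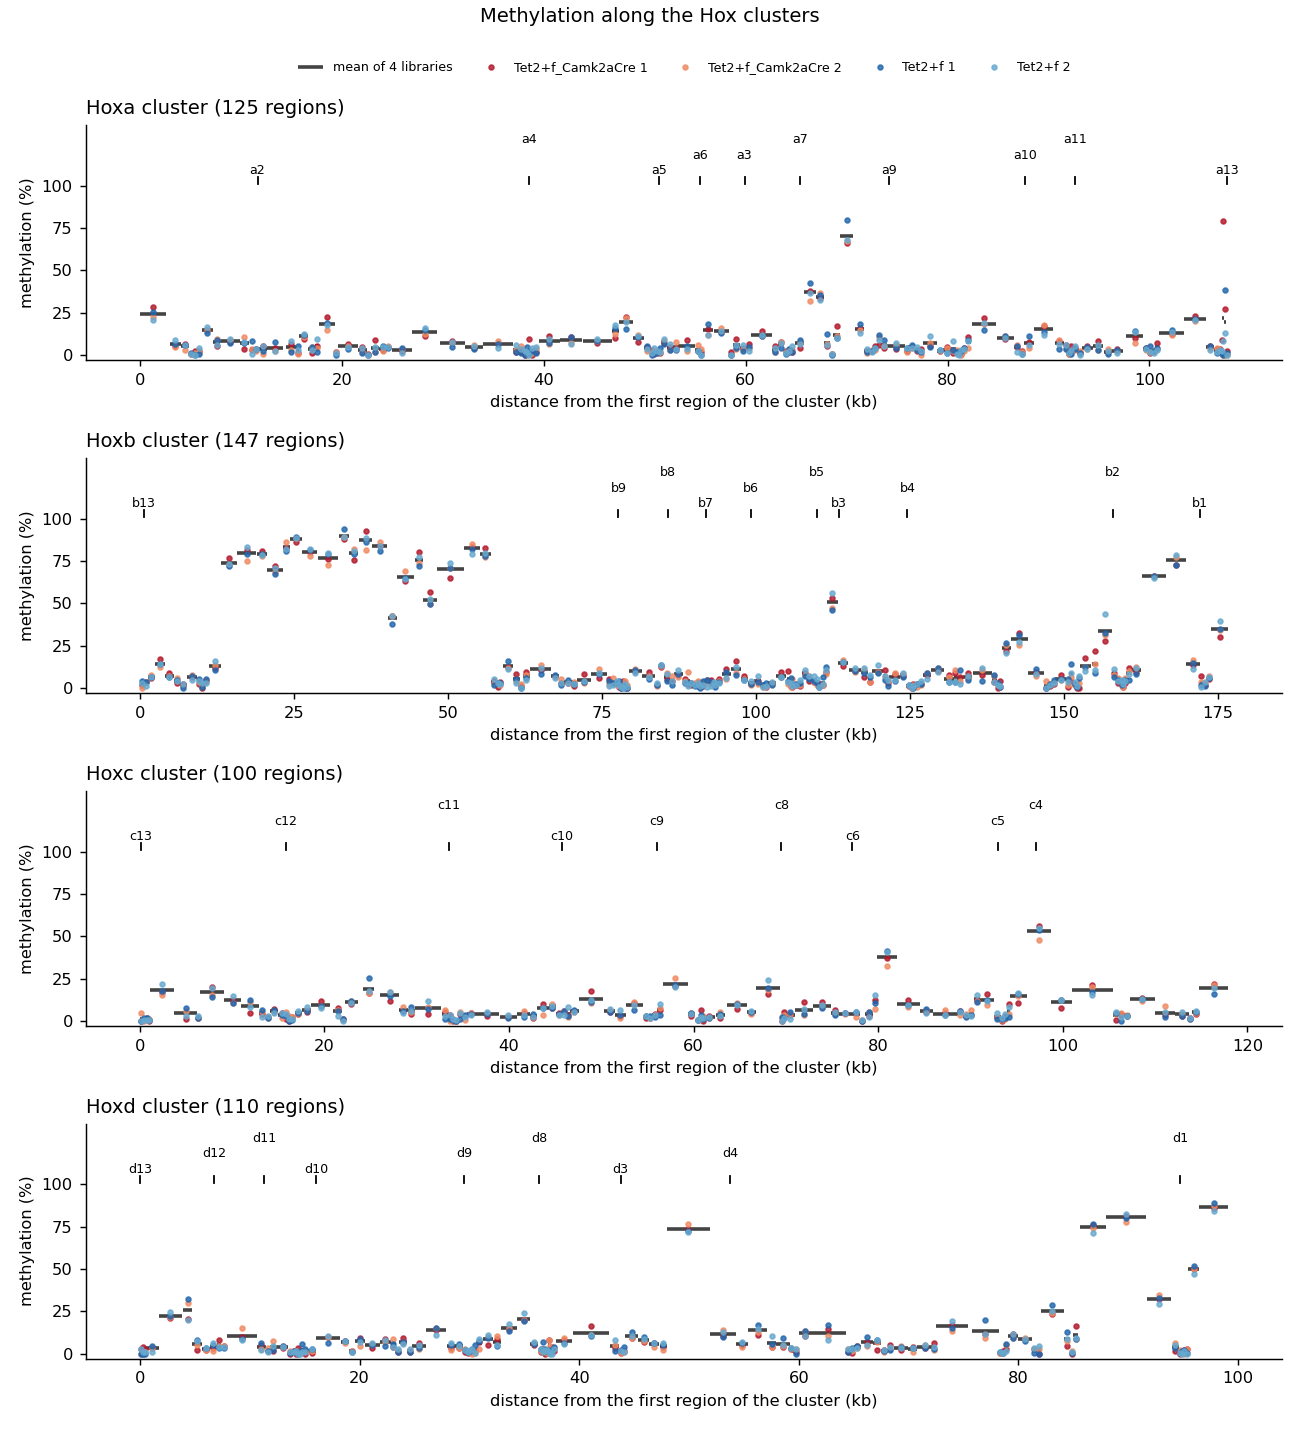
Methylation level (percent, vertical axis) of every region along the 4 clusters, by distance in kb from the first region of each cluster (horizontal axis). Points are the 4 libraries, Tet2+f_Camk2aCre in red and orange and Tet2+f in dark and light blue, grey bars span each region at its mean, and ticks mark the outermost RefSeq starts of Hox genes. Most regions of each cluster lie under 10%, and methylated blocks stand out between Hoxb13 and Hoxb9, between Hoxb2 and Hoxb1, within Hoxd3 and before Hoxd1.

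Methylated islands interrupted the low domain. The 27 regions at 50% or more formed 9 stretches. The longest lay within the wide gap between Hoxb13, the highest-numbered gene of its cluster, and Hoxb9: 12 regions over 27014 bp (chr11:96206814-96233827) averaged 81.5% and 79.9% in Tet2+f_Camk2aCre and 80.8% and 81.8% in Tet2+f. A further 6 regions over 15185 bp nearer Hoxb9 averaged 71.9% and 71.0% in Tet2+f_Camk2aCre, against 69.6% and 71.2% in Tet2+f. The region with the highest level of any cluster lay in this gap and in no annotated gene (chr11:96225989-96227541), with 88.0% and 89.0% in Tet2+f_Camk2aCre and 94.1% and 88.9% in Tet2+f. The region that follows these on the Hoxb9 side had a mean of 3.50%, and the rest of the gap up to Hoxb9 belonged to the low stretch of 54.5 kb. With these stretches among its 21 regions at 50% or more, the Hoxb cluster had a mean (16.2% and 16.04% in Tet2+f_Camk2aCre, 15.8% and 16.2% in Tet2+f) that was the highest of the 4 clusters.

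The other islands were short. In the gap between Hoxb2 and Hoxb1, 2 regions over 7205 bp averaged 69.5% and 71.9% in Tet2+f_Camk2aCre and 69.5% and 72.0% in Tet2+f. A region of 3895 bp inside the long annotated span of Hoxd3 (chr2:74716204-74720098) had 73.6% and 76.5% in Tet2+f_Camk2aCre, against 72.5% and 72.0% in Tet2+f. In Haglr, a long non-coding RNA gene next to Hoxd1, 2 regions over 6016 bp averaged 78.9% and 76.2% in Tet2+f_Camk2aCre, against 78.6% and 77.1% in Tet2+f. The 3′ end of Hoxd1 held the highest Hoxd region (chr2:74764719-74767321), with 85.9% and 87.4% in Tet2+f_Camk2aCre and 89.3% and 84.1% in Tet2+f. The highest Hoxa region overlapped the 3′ end of Hoxa9 (chr6:52222541-52223827), with 66.5% and 67.4% in Tet2+f_Camk2aCre against 79.7% and 68.2% in Tet2+f. Its groups did not overlap, but the 2 Tet2+f libraries lay further apart than the groups did (limma adjusted p = 0.937). The highest Hoxc region overlapped Hoxc5 and the outermost start of Hoxc4 (chr15:103017119-103019776), with 56.3% and 47.7% in Tet2+f_Camk2aCre and 53.8% and 55.1% in Tet2+f. A region over Hoxb5 and its antisense gene Hoxb5os had 53.2% and 47.5% in Tet2+f_Camk2aCre, against 46.0% and 55.8% in Tet2+f. At each of the 9 stretches the group means differed by less than the libraries of one of the groups did. The groups did not overlap at the Hoxd3 region, which was 2.80 points higher in Tet2+f_Camk2aCre. Across all regions tested, groups did not overlap in 32.8%.

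At the other extreme, the lowest region of each cluster was close to free of methylation. In Hoxa it was a region of 141 bp within Hoxa3 (chr6:52175651-52175791), with 0.5% and 0.0% in Tet2+f_Camk2aCre and 0.0% in both Tet2+f libraries. In Hoxb it overlapped Hoxb4 (chr11:96318863-96319064), with 0.0% in both Tet2+f_Camk2aCre libraries and 0.532% and 0.0% in Tet2+f. In Hoxc it overlapped Hoxc11 (chr15:102955094-102955484), with 0.0% in both Tet2+f_Camk2aCre libraries and 0.0% and 0.741% in Tet2+f. In Hoxd it lay in Hoxd3 (chr2:74746451-74746727), with 0.4% and 0.417% in Tet2+f_Camk2aCre and 0.733% and 1.25% in Tet2+f. Coverage was not used here, so an exact 0.0% may rest on few reads and no limit can be set on it.

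Promoters of Hox genes followed the clusters. A promoter level is the mean of all regions that overlap 2000 bp before to 500 bp after the outermost gene start, with regions counted whole. Over the 39 Hox genes the median promoter level was 5.87%, and 33 were under 10%. The lowest were Hoxc13, a gene of hair and nail, with 1.65% and 1.83% in Tet2+f_Camk2aCre and 1.99% and 2.18% in Tet2+f; Hoxd10, a limb and spinal cord gene, with 2.12% and 2.27% in Tet2+f_Camk2aCre and 2.71% and 2.16% in Tet2+f; and Hoxb7, a gene of the trunk, with 2.85% and 2.87% in Tet2+f_Camk2aCre and 2.41% and 1.57% in Tet2+f. The Hoxb7 and Hoxc13 groups did not overlap, in opposite directions, and neither passed the test. Groups did not overlap in 33.7% of all promoters.

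Promoters at 20% or more belonged to Hoxd4, Hoxc4, Hoxa7, Hoxb3 and Hoxb2, and each had a region of 33.8% or more that overlapped its promoter window. Regions were counted whole, and most of the Hoxd4 one lies outside the window. The Hoxb3 one is the island over Hoxb5 and Hoxb5os. Hoxd4, a gene of the hindbrain and neck vertebrae, had 42.1% and 45.2% in Tet2+f_Camk2aCre and 41.3% and 42.5% in Tet2+f, of which one region is the methylated island in Hoxd3, while the region that holds the Hoxd4 start had a mean of 11.8%. Hoxc4, also a gene of the neck vertebrae, had 33.4% and 31.1% in Tet2+f_Camk2aCre, against 34.9% and 35.7% in Tet2+f. It was the only gene whose start lay in a region above 20%, at the outermost of its annotated starts, and the RefSeq window of Hoxc4 further along lay in a region of 1506 bp with 2.80% and 4.20% in Tet2+f_Camk2aCre and 2.80% and 5.40% in Tet2+f. Hoxa7, a gene of the trunk, had 25.2% and 25.4% in Tet2+f_Camk2aCre and 29.0% and 25.1% in Tet2+f, with a region of 1178 bp at 37.1% under its promoter. Hoxb3 and Hoxb2, both genes of the hindbrain, had 25.2% and 24.2% (Hoxb3) and 18.3% and 19.6% (Hoxb2) in Tet2+f_Camk2aCre. In Tet2+f the levels were 24.5% and 27.1% for Hoxb3 and 19.6% and 27.2% for Hoxb2. Taking the single region at the gene start instead, 34 of 39 genes were under 10% and the median was 3.28%. For Hoxd13 no region held the start itself, and the region taken ends just before it and before the first member of its cluster.

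**Figure D3:**
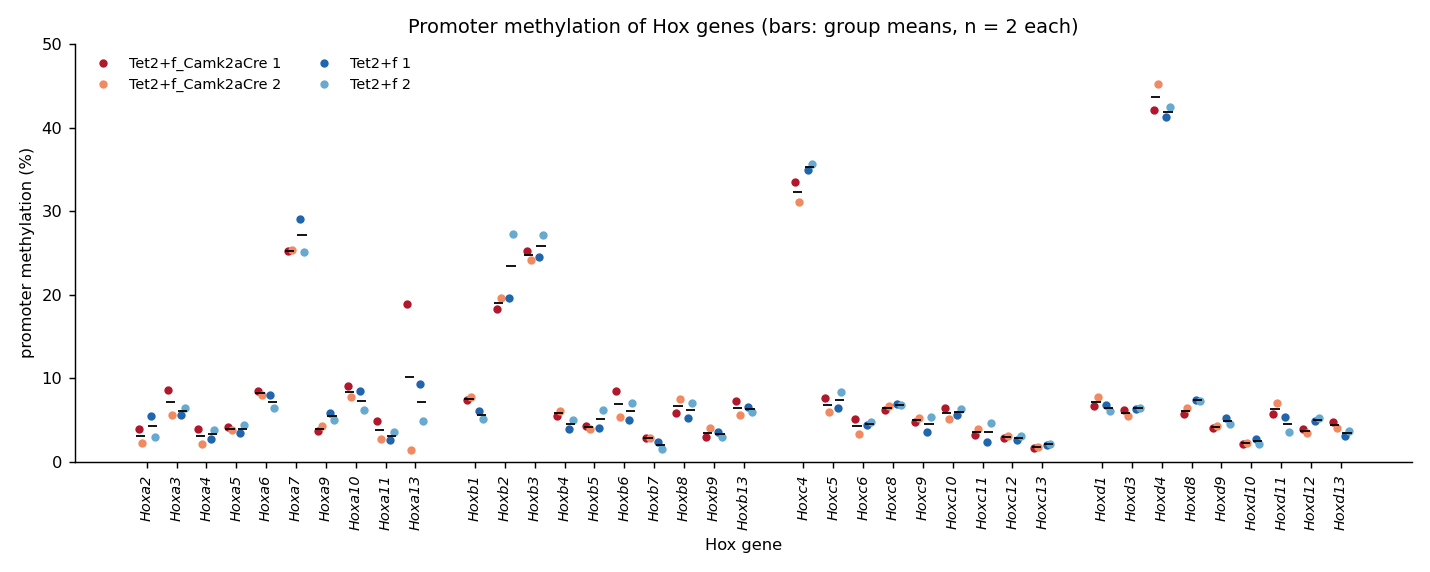
Promoter methylation level (percent, vertical axis) of Hox genes (horizontal axis, by cluster), with 1 point per library (Tet2+f_Camk2aCre in red and orange at the left of each gene, Tet2+f in blue at the right) and bars at the group means (n = 2 each). Hoxd4, Hoxc4, Hoxa7, Hoxb3 and Hoxb2 stand above 20%, and Hoxa13 has 1 Tet2+f_Camk2aCre library at 18.9% beside 1.45% in the other.

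Numbering within the clusters, which follows the body axis, was set beside the promoter levels. The genes numbered 9 to 13 had means over genes between 3.63% for the genes numbered 12 and 5.34% for those numbered 10. Those numbered 5, 6 and 8 were low too, with means of 5.22%, 6.19% and 6.59%, so levels did not change in a single step along the numbers. Those numbered 2, 3, 4 and 7 had means of 12.4%, 12.7%, 21.2% and 14.3%, each carried by 1 or 2 of the genes above 20%: Hoxa4 had 3.17%, Hoxb4 5.15%, Hoxa2 3.69% and Hoxd3 6.13%. Genes of one number share descent and their promoters are not replicates, so these values are a description.

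Other developmental regulators gave a scale for these promoters. In a list of 83 transcription factors outside the Hox clusters, such as the Pax, Lhx and Gata genes, 82 had a promoter level. Hox promoters averaged 8.73% and 8.04% in Tet2+f_Camk2aCre and 8.28% and 8.56% in Tet2+f. The other factors averaged 13.5% and 12.8% in Tet2+f_Camk2aCre, against 13.4% and 13.6% in Tet2+f. Hox minus other factors was -4.91 ± 0.159 points (SD, n = 4 libraries; exact sign-flip permutation p = 0.125). It was -10.1 points weighted by region length and -9.74 points without regions under 500 bp. With a window of 1000 bp before to 200 bp after the start it was -3.67 points. The median promoter level was 5.87% for Hox genes and 8.14% for the other factors. Single genes of the lists overlapped widely: 46 of 82 (56.1%) were under 10%, against 33 of 39 Hox promoters (84.6%). At the extremes stood Irx5, a homeobox gene of heart and limb, with 1.62% and 1.38% in Tet2+f_Camk2aCre and 0.909% and 1.28% in Tet2+f, and Lhx4, a LIM homeobox gene of pituitary and motor neurons, with 71.2% and 73.8% in Tet2+f_Camk2aCre and 72.6% and 72.0% in Tet2+f. Over all 32074 promoters the median level was 61.5%. Between the genotypes, 0 of the 82 factors passed limma's test, against 0.0156% of all promoters, and 2 higher and 6 lower had an unadjusted p under 0.05, against 5.29% of all promoters (2.5% higher and 2.79% lower).

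The microRNA genes inside the clusters lay in low regions as well. miR-10 and miR-196 are known to target Hox transcripts, and the members of each family share a seed, the bases 2 to 8 that pair with a target. The mature sequences (RefSeq, GRCm38.p6, 5′ to 3′) carry the seed in capitals.
miR-10a-5p: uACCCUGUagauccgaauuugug
miR-10b-5p: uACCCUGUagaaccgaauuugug
miR-196a-5p: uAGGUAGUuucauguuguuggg
miR-196b-5p: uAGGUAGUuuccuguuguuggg
The region over Mir10a, between Hoxb5 and Hoxb4, had 7.22% and 8.12% in Tet2+f_Camk2aCre and 6.38% and 8.89% in Tet2+f. The region over Mir10b, in the annotated span of Hoxd4, had 4.21% and 4.24% in Tet2+f_Camk2aCre, against 5.89% and 10.3% in Tet2+f. The groups overlapped at Mir10a and not at Mir10b, where the Tet2+f libraries lay further apart than the group means. The miR-196 genes Mir196a-1 (before Hoxb9), Mir196a-2 (between Hoxc10 and Hoxc9) and Mir196b (between Hoxa9 and Hoxa10) had means of 4.75%, 3.46% and 3.22% over the 4 libraries. Mir196b, with 2.24% and 2.70% in Tet2+f_Camk2aCre and 3.23% and 4.72% in Tet2+f, did not overlap between groups. Mir196a-2, with 2.92% and 1.52% in Tet2+f_Camk2aCre and 3.21% and 6.19% in Tet2+f, did not overlap either. Groups did not overlap in 33.0% of all gene bodies. Mir615, in the annotated span of Hoxc5, had a mean of 2.30%.

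Long non-coding RNA genes of the clusters fell into low and mixed ones. Hotair, in Hoxc, whose human counterpart is known to bind Polycomb proteins, averaged 12.7% and 14.9% in Tet2+f_Camk2aCre, against 17.4% and 14.99% in Tet2+f, over 3 regions. Haglr averaged 20.7% and 21.0% in Tet2+f_Camk2aCre and 21.1% and 20.8% in Tet2+f, and its 12 regions ran from 0.711% to 80.6%. Beyond the clusters, Hottip next to Hoxa13 averaged 5.96%, and Halr1 averaged 81.1%. Of the 17 non-coding genes listed, 0 passed limma's test in either direction by gene body (0.0% of all gene bodies passed), and 0 had an unadjusted p under 0.05 (5.6% of all gene bodies did).

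The comparison between genotypes asks whether Cre in Tet2+f mice moved Hox methylation. Cluster means differed by less than 0.3 points. The mean over all Hox regions differed by -0.0284 points (Tet2+f_Camk2aCre minus Tet2+f; exact two-sided permutation test, p = 1.0, over 6 arrangements, of which the smallest possible p is 0.333). The Hoxa mean was 7.69% and 6.11% in Tet2+f_Camk2aCre and 6.84% and 6.74% in Tet2+f, the Hoxc mean 6.71% and 6.62% in Tet2+f_Camk2aCre against 6.51% and 7.06% in Tet2+f, and the Hoxb groups overlapped too (exact permutation p = 1.0 for each). The Hoxd mean was 8.54% and 8.69% in Tet2+f_Camk2aCre against 9.10% and 8.70% in Tet2+f, a difference of -0.285 points, with groups that did not overlap (exact permutation p = 0.333). Weighted by region length the Hoxd groups overlapped, with 18.46% and 18.5% in Tet2+f_Camk2aCre and 19.1% and 18.4% in Tet2+f (exact permutation p = 1.0), and centred on all regions p was 0.667. The Hoxd difference was -0.0814 points without Tet2+f replicate 1, -0.489 points without Tet2+f replicate 2 and -0.606 points without regions under 500 bp. Over all 849014 regions the mean was 75.96% and 75.8% in Tet2+f_Camk2aCre and 75.7% and 76.1% in Tet2+f.

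Region by region, 0 of 482 Hox regions passed an adjusted p of 0.05 in limma's moderated test, as did 0 of all 849014 regions (0.0%), and the smallest adjusted p of a Hox region was 0.937. At an unadjusted p under 0.05, 51 Hox regions (10.6%) were found, 24 higher and 27 lower in Tet2+f_Camk2aCre, against 4.6% of all regions (2.25% higher and 2.35% lower). The test ran on a logit scale, which stretches differences near 0%, and regions outside the clusters with a level under 10% reached 11.8%, against 48 of 374 (12.8%) for Hox regions under 10%. On the percent scale 10 Hox regions (2.07%) had an unadjusted p under 0.05, against 4.96% of all regions. The groups did not overlap in 33.4% of Hox regions, 74 higher and 87 lower, against 32.8% of all regions (15.9% higher and 16.8% lower). The counts by cluster at an unadjusted p under 0.05 were 15 of 125 for Hoxa, 16 of 147 for Hoxb, 5 of 100 for Hoxc and 15 of 110 for Hoxd.

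The regions with the smallest p in each direction differed by a few points. In Hoxb3 neighbouring regions were higher: 7.59% and 6.75% in Tet2+f_Camk2aCre against 3.28% and 3.23% in Tet2+f (chr11:96324145-96325784), and 8.79% and 10.4% in Tet2+f_Camk2aCre against 3.53% and 3.55% in Tet2+f in the next one (chr11:96325785-96326271). Both lie in the annotated span of Hoxb3, and limma gave unadjusted p of 0.00425 and 0.00162 and an adjusted p of 0.937 for each. In Hoxa10, a gene of the uterus, one region (chr6:52232767-52233478) had 4.48% and 4.23% in Tet2+f_Camk2aCre against 1.07% and 1.47% in Tet2+f. A second Hoxa10 region went the other way (chr6:52234431-52234650), with 0.667% and 0.0% in Tet2+f_Camk2aCre against 2.27% and 2.70% in Tet2+f. Within Hoxd8, a region of 137 bp (chr2:74705387-74705523) had 7.83% and 8.35% in Tet2+f_Camk2aCre against 2.48% and 0.855% in Tet2+f. This was the largest such difference of Hoxd, 6.42 points. In Hoxd1, 1 region (chr2:74763442-74763702) had 2.54% and 2.91% in Tet2+f_Camk2aCre, against 0.581% and 0.0% in Tet2+f. The smallest p for a higher Hoxc region lay before Hoxc11 (chr15:102953722-102954452), with 5.35% and 6.32% in Tet2+f_Camk2aCre against 1.04% and 2.61% in Tet2+f. A region in Hoxc8 (chr15:102990699-102991013) had 5.29% and 3.33% in Tet2+f_Camk2aCre against 1.47% and 1.84% in Tet2+f. At the start of Hoxa6, a region (chr6:52208631-52208926) had 1.58% and 3.83% in Tet2+f_Camk2aCre against 0.0% in both Tet2+f libraries.

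The lower regions with the smallest p differed by -0.79 to -3.74 points, and the higher ones above by 2.43 to 6.42 points. In Hoxaas2, a non-coding gene of the Hoxa cluster, 1 region (chr6:52168654-52168944) had 0.957% and 0.5% in Tet2+f_Camk2aCre against 5.2% and 3.01% in Tet2+f. In Hoxb, a region in the span of Hoxb3 (chr11:96311795-96312578) had 3.47% and 3.37% in Tet2+f_Camk2aCre against 6.54% and 7.77% in Tet2+f. Over Hoxb2 and Hoxb3os (chr11:96353183-96353371) the levels were 0.733% and 0.5% in Tet2+f_Camk2aCre against 3.87% and 2.07% in Tet2+f. In Hoxd, the region at the start of Hoxd3 (chr2:74711885-74712123) had 0.603% and 0.643% in Tet2+f_Camk2aCre against 2.11% and 1.83% in Tet2+f. The region at the start of Hoxd8 (chr2:74704563-74704865) had 1.11% and 1.4% in Tet2+f_Camk2aCre against 3.03% and 2.5% in Tet2+f. In Hoxc, where only 1 lower region had an unadjusted p under 0.05, the pair of smallest p lay in Hoxc5 (chr15:103014295-103014571), with 0.0% and 0.25% in Tet2+f_Camk2aCre against 0.8% and 1.47% in Tet2+f, and in Hoxc13 (chr15:102921355-102921586), with 0.595% and 0.0% in Tet2+f_Camk2aCre against 1.42% and 0.758% in Tet2+f. The groups did not overlap in any of the regions chosen by p, but choosing by p favours such regions. Among all regions, groups did not overlap in 32.8%. Limma's adjusted p was 0.937 for each of the chosen regions.

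**Figure D4:**
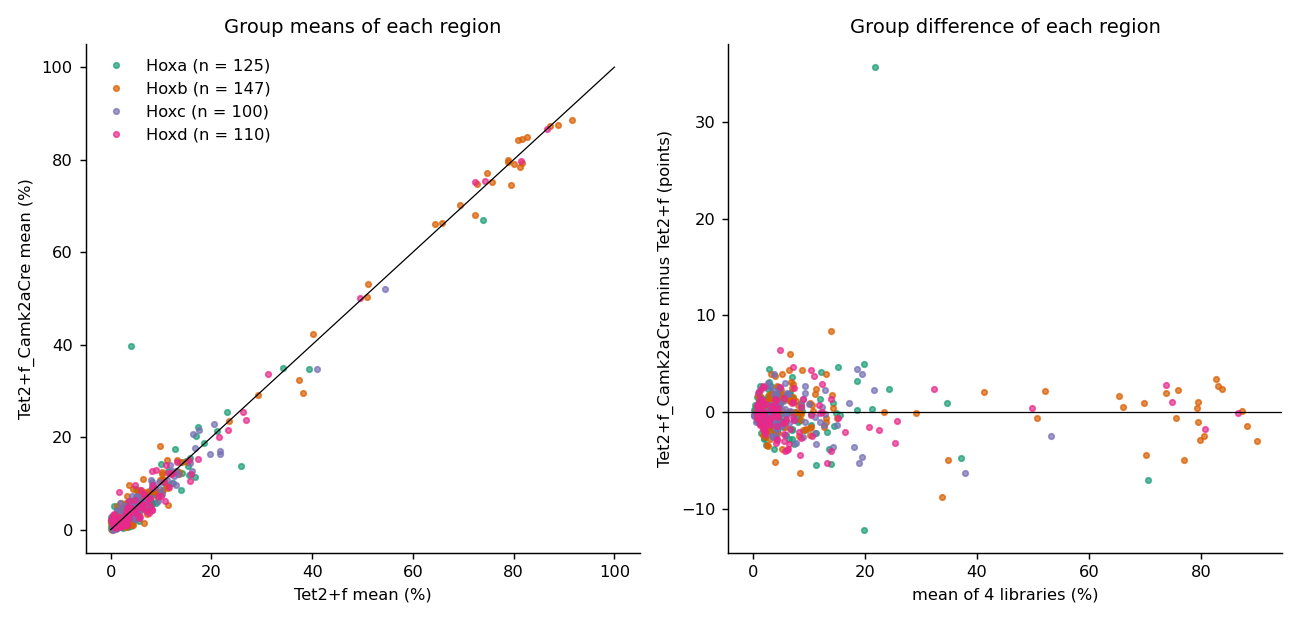
Left, mean methylation of each Hox region in Tet2+f_Camk2aCre (percent, vertical axis) against its mean in Tet2+f (horizontal axis), by cluster, with the line of equality. Right, the difference Tet2+f_Camk2aCre minus Tet2+f in points (vertical axis) against the mean of 4 libraries (horizontal axis); 2 regions, both in Hoxa13, differ by more than 10 points.

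One place in Hoxa13, a gene of digits and genitalia, varied between libraries more than any other. A region of 145 bp (chr6:52260402-52260546) had 79.4% and 0.0% in Tet2+f_Camk2aCre and 0.0% and 8.14% in Tet2+f. The next region, of 184 bp (chr6:52260547-52260730), had 27.5% and 0.0% in Tet2+f_Camk2aCre and 38.5% and 13.2% in Tet2+f. The groups overlapped in both. They were the 2 Hox regions with a range over 20 points across libraries, where the median range was 3.54 points and 10 regions ranged over more than 10. Levels in Hoxa13 therefore rested on single libraries: its promoter had 18.9% and 1.45% in Tet2+f_Camk2aCre and 9.27% and 4.93% in Tet2+f. The Hoxa mean difference, Tet2+f_Camk2aCre minus Tet2+f, was 0.104 points with the first region and -0.182 points without it. Coverage of these regions was not part of the table, and its part in the spread was not tested.

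Among promoters, 0 of 39 Hox genes passed, against 5 of all 32074 (0.0156%), and the smallest adjusted p in limma was 0.932. Unadjusted p under 0.05 were found for 3 of the 39 Hox promoters, 1 higher and 2 lower, against 5.29% of all promoters (2.5% higher and 2.79% lower), and for 0 on the percent scale. Hoxb1 had 7.38% and 7.70% in Tet2+f_Camk2aCre against 6.09% and 5.17% in Tet2+f. Hoxa9, which acts in blood stem cells and the trunk, had 3.67% and 4.27% in Tet2+f_Camk2aCre against 5.82% and 5.06% in Tet2+f. Hoxd12, a limb gene, had 3.88% and 3.43% in Tet2+f_Camk2aCre against 4.89% and 5.21% in Tet2+f. The groups did not overlap in these 3 promoters, with differences of 1.90, -1.47 and -1.40 points. Choosing promoters by p favours such separation, and groups did not overlap in 33.7% of all promoters. Promoter levels were higher in Tet2+f_Camk2aCre for 20 genes and lower for 19, and the median difference was 0.0200 points, against 0.0272 over all promoters.

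Gene bodies gave a like picture. Over the 39 genes 0 passed, as did 0 of 49601 (0.0%), and the smallest adjusted p was 0.813. Unadjusted p under 0.05 were found for 4 of the 39 Hox gene bodies, 3 higher and 1 lower, against 5.6% of all (2.78% higher and 2.82% lower), for 0 on the percent scale and for 1 with a trended prior. Hoxd9, a gene of limb and lumbar spine, had 2.66% and 2.52% in Tet2+f_Camk2aCre against 4.24% and 3.93% in Tet2+f. Hoxd12 had 6.52% and 6.55% in Tet2+f_Camk2aCre against 5.06% and 5.44% in Tet2+f, in the opposite direction to its promoter. Hoxb9, a gene of the thorax, had 3.52% and 3.96% in Tet2+f_Camk2aCre against 2.99% and 2.90% in Tet2+f. Hoxa6, a trunk gene, had 4.90% and 5.14% in Tet2+f_Camk2aCre against 3.40% and 4.11% in Tet2+f. The body level was higher in Tet2+f_Camk2aCre for 23 genes and lower for 16, while 50.1% of all gene bodies were higher. The median difference was 0.114 points, against 0.00291 over all gene bodies. Some bodies share regions, as the span of Hoxa3 holds Hoxa4, Hoxa5 and Hoxa6, so the 39 genes are not separate measurements.

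Genes that act on or with Hox genes were listed as well. Of 19 cofactors and upstream factors, such as the Pbx and Meis genes whose proteins bind DNA with Hox proteins, and of 37 Polycomb and trithorax genes, 0 passed limma's test by promoter or by gene body in either direction. Over all features, 0.0156% of promoters and 0.0% of gene bodies passed. At an unadjusted p under 0.05 stood 1 promoter of each list, that of Meis2 (lower) and that of Ring1 (higher), named after their values were seen, and 0 gene bodies, against 5.29% of all promoters and 5.6% of all gene bodies. The median promoter difference was -0.45 points for the cofactors and 0.0496 points for the Polycomb and trithorax genes, against 0.0272 over all promoters.

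Across the series, pairs of libraries correlated at r = 0.979 to 0.984 over all regions and at 0.963 to 0.987 over the 482 Hox regions, the 3 lowest of which involve the first Tet2+f_Camk2aCre library. Without the 145 bp region in Hoxa13 the Hox range was 0.982 to 0.987. Tet2 gene body levels were 72.7% and 69.3% in Tet2+f_Camk2aCre and 70.5% and 69.7% in Tet2+f, which does not measure its deletion. Promoters of CA1 pyramidal markers had a median level of 21.7%, against 48.2% for excitatory neuron, 37.0% for interneuron, 64.0% for astrocyte, 76.4% for oligodendrocyte, 73.3% for microglia and 40.5% for endothelial markers; levels of methylation do not measure expression.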

How the data were processed

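Whole-genome bisulfite sequencing was done on CA1 tissue of 4 libraries, 2 per group, assigned by title. The authors deposited a table of percent methylation per region and library, with no counts or coverage, so the depth behind a level is unknown. Per the submitters' processing notes, the build was mm10, and Bismark 0.19.0, Trim Galore 0.4.5, FastQC 0.11.5 and edgeR were named; how regions were drawn and how levels were averaged is not given in the sources used here.

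Regions with a level in all 4 libraries (849014) were tested in R 4.3.3 with limma 3.58.1 after a log2 logit of the level (as a fraction, offset 0.01 on either side), with Benjamini-Hochberg adjustment at 0.05 over all features. Promoter and gene body levels are means of overlapping regions counted whole, on RefSeq GRCm38.p6 positions; strand came from the deposited table, RefSeq or, for 7 Hox genes, their cluster. Library means were compared by exact permutation tests. The limma test was tried on simulated data with changes much larger than nearly all Hox differences, so its power for changes of a few points was not tested. The members and gene lists were chosen with earlier results of these data known. Values per library were named for the extreme regions and promoters, the smallest p per cluster and direction, and promoters or gene bodies with unadjusted p under 0.05; regions of the Hoxa13 gene and island regions were named after their values were seen. One gene that enters the counts is not reported here by itself. Replicate numbers did not pair the libraries. Alternatives are given in the closing section.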

Additional observations from a re-analysis of the deposited data

How the results depend on the processing

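Counts of Hox regions, promoters and gene bodies past the threshold were 0 under the replicate block, other logit offsets, the percent scale, a trended prior, centred libraries, other windows and each library left out. Same-numbered libraries did not deviate together (r = -0.0274 over Hox regions, 0.00648 over all), and the replicate block left the count at 0. All 5 contrasts of Hox regions with other regions kept their sign under every alternative run. The promoter contrast moved to between -3.67 and -10.1 points. The contrast in the share of regions under 10% was 71.7 points as reported. It was 55.8 points weighted by region length and 83.7 points with a limit of 20%. Of 119 alternatives to the 13 compared results, 110 kept the result and 9 changed sign, all 9 in cluster mean differences under 1 point. For the contrasts and mean differences only the sign was compared, since their exact tests cannot reach 0.05. For the counts, a kept result means that the count stayed at 0. With named rows only, the difference over all Hox regions was 0.0827 and that of Hoxc 0.170 points. Hoxa was -0.192 without regions under 500 bp and -0.182 without the Hoxa13 region with 1 high library, an alternative chosen after seeing the data. Leaving out one library each gave -0.251 to 0.194 points over all Hox regions, -0.683 to 0.892 for Hoxa, -0.101 to 0.324 for Hoxb, -0.393 to 0.158 for Hoxc and -0.489 to -0.0814 for Hoxd. The sign changed without Tet2+f_Camk2aCre replicate 2 or Tet2+f replicate 2 for all Hox regions, without Tet2+f_Camk2aCre replicate 1 for Hoxa, without Tet2+f replicate 1 for Hoxb and without Tet2+f replicate 2 for Hoxc. Hox regions with an unadjusted p under 0.05 numbered 51 in the reported test, 10 on the percent scale, 30 with a logit offset of 0.05, 33 with a trended prior, 60 with the replicate block and 61 with centred libraries. Over all 849014 regions the counts, in the same order, were 39068, 42071, 38178, 40354, 34058 and 39992. The cause of the differing Hox counts was not tested. The deposited levels carry no coverage, so regions resting on few reads could not be set apart.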
